A study of Mus musculus with 44 samples.

Results

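Pparg encodes PPARγ, a nuclear receptor that binds fatty acids and their derivatives, pairs with RXR and switches on genes of lipid handling. In injured skeletal muscle, infiltrating monocytes first form inflammatory Ly6C+ macrophages (MFs) and then Ly6C- MFs, the subset linked with repair, and PPARγ has been studied as a regulator of that repair phenotype. The effect of the Pparg knockout was read here in the Ly6C- F4/80high MFs of day 2, as the difference between 5 knockout (KO) arrays and 6 wild-type (WT) arrays out of the 44 arrays of the series, over all 19938 genes with a value.

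The MFs of both groups were isolated at day 2 after cardiotoxin, a venom toxin that destroys muscle fibres, had been injected into the tibialis anterior muscle, and no other treatment was given. Bead selection for CD45 preceded the sort, which used Ly6C, a surface protein of inflammatory monocytes, and F4/80, the product of Adgre1. The WT animals were C57B6/J, and the labels state neither a floxed allele nor Cre for them. The KO animals were C57B6/J with PPARg fl/fl and LysM Cre+, in which Cre is driven by the lysozyme gene Lyz2 and so acts in MFs, neutrophils and other myeloid cells. The labels name no age, sex, litter, scan date or animal for single arrays, so the p-values measure the spread between these samples. Both groups held high levels of the F4/80 gene Adgre1, between 12.03 and 12.11 in KO and between 11.94 and 12.16 in WT on the log2 scale. The probe sets shared by Ly6c1 and Ly6c2 averaged 8.78 and 9.24 in WT and 9.27 and 9.64 in KO Ly6C- MFs, against 11.91 and 12.15 in the WT Ly6C+ MFs of the same day. Their WT and KO ranges in Ly6C- MFs overlapped, at 8.61 to 8.94 against 8.88 to 9.55 and 8.98 to 9.63 against 9.13 to 9.98, and the part of this in the results below was not tested. In sorted bulk samples, fewer cells of one kind and less RNA per cell cannot be told apart.

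The 6 WT arrays were not alike. Replicates 1 to 3 stood apart from replicates 4 to 6 and from the KO on the first principal component of the 11 arrays, which held 32.2% of the variance. Their scores ran from 17.5 to 25.2, those of WT replicates 4 to 6 from -12.5 to -0.58 and those of the KO from -11.9 to -3.73. Between the WT sets themselves, 1457 of 19938 genes (7.31%) passed limma's moderated test at a Benjamini-Hochberg adjusted p below 0.05, the threshold used for every call below.

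Lyz2, the lysozyme gene that carries Cre in LysM Cre animals, split the WT arrays. It read 9.14, 9.11 and 9.29 in WT replicates 1 to 3 and 12.96, 12.79 and 12.84 in WT replicates 4 to 6. The KO arrays read 9.65, 9.64, 9.43, 9.53 and 9.93, so the first WT set lay below every KO array and the second far above. Against all 6 WT arrays the log2 difference in Lyz2 was -1.38 ± 0.64 (SE; limma adjusted p = 0.467), against replicates 1 to 3 it was 0.46 (adjusted p = 0.021), and against replicates 4 to 6 it was -3.23 (adjusted p = 7.58e-21). Its neighbour Lyz1 ran the other way, at 12.10, 12.22 and 12.04 in WT replicates 1 to 3, at 10.68, 10.34 and 10.75 in WT replicates 4 to 6, and between 12.29 and 12.57 in the KO. The 2 lysozyme genes are close copies, so their probe sets could share signal. The WT Ly6C+ arrays of day 2 showed the same split by number, with Lyz2 at 8.67 to 8.99 in replicates 1 to 3 and 12.64 to 13.02 in replicates 4 to 6. All other WT groups of the series had Lyz2 levels like those of replicates 4 to 6, with means between 12.95 and 13.01. The arrays are named by their labels throughout, and the part of this split in other results was not tested.

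Pparg itself was read by probe set 10540897. It gave 10.45, 10.49, 10.10, 10.27 and 10.62 in the KO, and its lowest, median and highest WT values were 10.08, 10.34 and 10.68. The difference was 0.00 ± 0.12 (SE; limma adjusted p = 0.999), with 0.19 against WT replicates 1 to 3 and -0.18 against replicates 4 to 6, neither of which passed. No source used here places this probe set relative to the floxed exons, so its level checks nothing about the deletion.

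**Figure D1:**
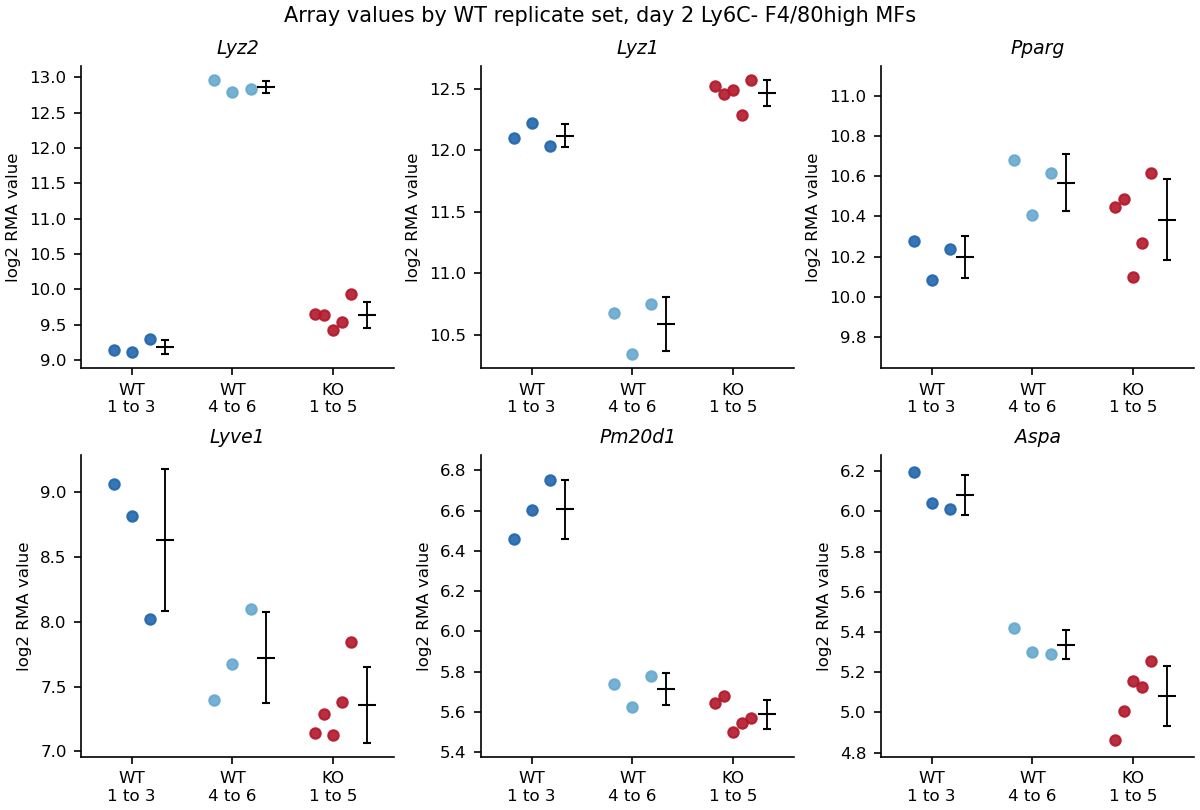
Log2 RMA values (y axis) of 6 genes in single arrays of day 2 Ly6C- MFs, for WT replicates 1 to 3, WT replicates 4 to 6 and KO replicates 1 to 5 (x axis). Points are arrays and black bars show the mean ± SD, each axis has its own range, and Lyz2 read at most 9.29 in WT replicates 1 to 3 and at least 12.79 in WT replicates 4 to 6.

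Against all 6 WT arrays, 40 of 19938 genes passed (0.201%), 17 of them higher (0.0853%) and 23 lower (0.115%) in the KO, while 9.92% of all genes had an unadjusted p below 0.05. The largest falls were those of the ligand Gdf3 and the hydrolase Cmbl, at more than 2-fold. The largest rises were those of the acute phase gene Saa3, Apold1, the transcription regulator Id3 and the iron exporter Slc40a1. In all, 6 of the 40 reached 2-fold, and the median absolute log2 difference was 0.532. With each array centred on its own median, 28 genes passed, 16 higher and 12 lower. For 27 of the 40, no KO array overlapped a WT array, 12 above and 15 below, while over all genes 174 (0.873%) had no overlap, 0.276% above and 0.597% below. Just inside the threshold stood Cd2, Pm20d1 and Zfp36 (adjusted p = 0.0473 each), and just outside it E2f8 (adjusted p = 0.0503) with Txndc2 and Mgst1 (adjusted p = 0.0507 each).

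Taken against WT replicates 1 to 3 alone, 2099 genes passed (10.5%), and against replicates 4 to 6 alone 23 genes did (0.115%). Of the 40 genes, 39 passed against the first set, Ms4a4c being the exception at 0.35 (adjusted p = 0.0998), and 16 against the second, 9 lower and 7 higher, where 0.0702% of all genes were lower and 0.0451% higher. These 2 comparisons share the KO arrays, so their values are set side by side and not counted as separate support. Called against both sets were 15 genes, the 9 lower ones Gdf3, Cmbl, Adam19, Tppp3, Megf9, Nav2, Eya4, Alox5 and Lrrc39 and the 6 higher ones Saa3, Apold1, Slc40a1, Clec7a, Rassf4 and Plxnd1. For 7 of the 40 the WT sets differed from each other, namely Lyve1, Aspa, Pm20d1, Gramd1c, Septin11, Il19 and Zfp36.

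**Figure D2:**
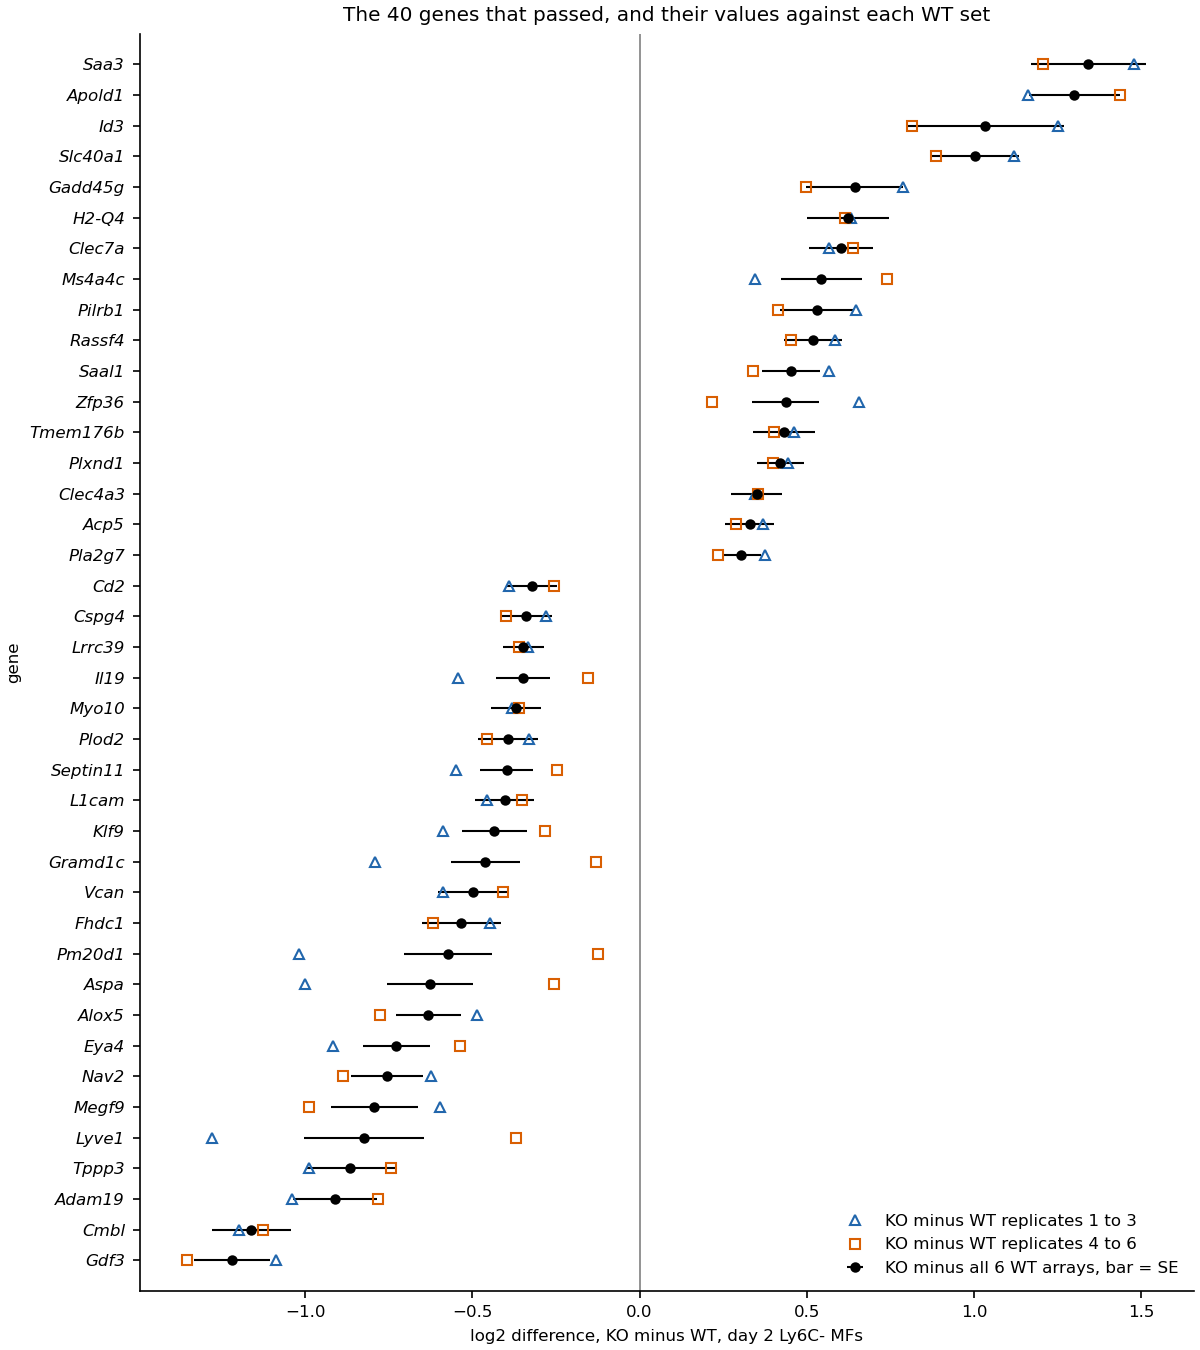
Log2 difference KO minus WT in day 2 Ly6C- MFs (x axis) for the 40 genes that passed (y axis), against all 6 WT arrays (filled points, bars are the SE), against WT replicates 1 to 3 (triangles) and against WT replicates 4 to 6 (squares). Gdf3, at -1.22 against all 6, lay at -1.09 and -1.35 against the sets, while Pm20d1, at -0.57, lay at -1.02 and -0.12.

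Among secreted ligands, Gdf3, a member of the TGF-β superfamily, fell the most. The KO arrays read 8.44, 8.23, 8.06, 8.27 and 8.25, and the WT arrays had a lowest value of 8.96, a median of 9.53 and a highest of 9.74. Every KO array lay below every WT array. The level was 2.33-fold lower in the KO, a log2 difference of -1.22 ± 0.11 (SE; limma adjusted p = 4.04e-09), and it passed against WT replicates 1 to 3 (-1.09, adjusted p = 2.93e-07) and 4 to 6 (-1.35, adjusted p = 8.47e-09). Il19, a cytokine of the IL-10 family near the lower end of the signal range, read between 5.75 and 5.90 in the KO and between 5.88 and 6.48 in WT, and its difference of -0.35 (adjusted p = 0.0472) was -0.54 against the first WT set and -0.15 (adjusted p = 1) against the second.

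Cmbl, which encodes a hydrolase of the cytosol, was the next largest fall. It read 6.95, 6.76, 6.47, 6.30 and 6.64 in the KO against a lowest, median and highest of 7.54, 7.85 and 8.04 in WT. The groups did not overlap, and the gap between the nearest arrays was wider than the spread within the WT group. The difference was -1.16 ± 0.12 (SE; limma adjusted p = 2.73e-08), that is, 2.24-fold lower, at -1.20 and -1.13 against the 2 WT sets. Alox5, the 5-lipoxygenase that starts leukotriene synthesis, read 7.74, 7.70, 7.77, 7.75 and 7.64 in the KO, and 7.96, 8.36 and 8.68 were its lowest, median and highest WT values. The KO arrays again lay below all WT arrays, with a difference of -0.63 ± 0.10 (SE; adjusted p = 0.000209) that passed against both sets (-0.49 and -0.78).

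Other enzymes depended on the WT set. Aspa, which cleaves N-acetylaspartate, read between 4.86 and 5.25 in the KO, between 6.01 and 6.20 in WT replicates 1 to 3 and between 5.29 and 5.42 in WT replicates 4 to 6. Its difference was -0.63 (adjusted p = 0.0152) against all 6 WT arrays and -0.26 (adjusted p = 1) against the second set. Pm20d1, a secreted enzyme that joins fatty acids to amino acids, had differences of -1.02 and -0.12 (adjusted p = 1) against the sets. Plod2, a lysyl hydroxylase of collagen, had a weak signal in all arrays, between 4.24 and 4.47 in the KO and between 4.55 and 5.06 in WT, and a difference of -0.39 (adjusted p = 0.0449), at -0.33 against the first WT set and -0.46 (adjusted p = 0.0943) against the second.

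Among membrane proteins, Adam19, a metalloprotease that sheds surface ligands, read 8.28, 8.90, 8.19, 8.46 and 8.93 in the KO, with 9.21, 9.43 and 9.77 as the lowest, median and highest WT values. No KO array reached the WT range. The difference was -0.91 ± 0.13 (SE; limma adjusted p = 2.58e-05), at -1.04 against WT replicates 1 to 3 and -0.78 against 4 to 6. Megf9, a membrane protein with EGF-like domains, read 8.57, 8.72, 9.09, 8.57 and 8.64 in the KO and 9.23, 9.48 and 9.79 at the lowest, median and highest in WT. It fell by 0.79 ± 0.13 on the log2 scale (SE; adjusted p = 0.000551), and the groups did not overlap. Lyve1, a hyaluronan receptor of tissue-resident MFs and lymphatic endothelium, overlapped between the groups. It read 9.07, 8.82 and 8.02 in WT replicates 1 to 3, 7.40, 7.68 and 8.10 in WT replicates 4 to 6, and between 7.13 and 7.85 in the KO, so that its difference was -1.28 (adjusted p = 4.13e-06) against the first set and -0.37 (adjusted p = 1) against the second. L1cam, an adhesion molecule, and Cspg4, the proteoglycan NG2, fell by 0.40 and 0.34 (adjusted p = 0.0335 and 0.0449), and Cd2, an adhesion receptor best known from T cells, by 0.32 at values no higher than 6.29 in any of the 11 arrays. None of these 3 passed against WT replicates 4 to 6, where L1cam had -0.35 (adjusted p = 0.561), Cspg4 -0.40 (adjusted p = 0.0836) and Cd2 -0.26 (adjusted p = 0.968).

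Among genes of the cytoskeleton, Tppp3, which promotes the assembly of tubulin, read 8.83, 9.09, 8.58, 8.86 and 8.77 in the KO and had WT values of 9.42, 9.71 and 9.99 at the lowest, median and highest. Its difference of -0.87 ± 0.13 (SE; limma adjusted p = 0.000174) separated all arrays of the groups and held against WT replicates 1 to 3 (-0.99, adjusted p = 4.95e-05) and 4 to 6 (-0.74, adjusted p = 0.0317). Nav2, a neuron navigator protein that binds the cytoskeleton, read between 8.43 and 9.18 in the KO and between 9.44 and 9.79 in WT (-0.76 ± 0.11, SE; adjusted p = 5.02e-05). Septin11, a GTPase of septin filaments, and Myo10, a myosin of filopodia, had smaller differences of -0.40 and -0.37 (adjusted p = 0.011 and 0.0151), and neither passed against WT replicates 4 to 6. Fhdc1, which carries a formin domain, had a log2 difference of -0.53 (adjusted p = 0.0355), with values between 5.69 and 6.02 in the KO and between 6.07 and 6.82 in WT, and missed the threshold against WT replicates 4 to 6 (-0.62, adjusted p = 0.0501). Lrrc39, a leucine-rich repeat protein, read between 5.61 and 5.80 in the KO and between 5.97 and 6.15 in WT, and its difference of -0.35 (adjusted p = 0.0022) passed against both WT sets.

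Of the transcription regulators that fell, Eya4, a coactivator with phosphatase activity, was measured at 7.78, 8.17, 7.85, 7.68 and 7.98 in the KO. The lowest, median and highest WT values were 8.24, 8.60 and 8.93, just above the highest KO array. The difference was -0.73 ± 0.10 (SE; limma adjusted p = 2.58e-05), at -0.92 and -0.54 against the WT sets, and passed against both. Klf9, a zinc finger factor induced by glucocorticoids, overlapped between the groups (-0.43, adjusted p = 0.0381) and lost the call against WT replicates 4 to 6 (-0.28, adjusted p = 1). Vcan, the matrix proteoglycan versican and a gene of Ly6C+ monocytes, read between 7.34 and 7.78 in the KO and 7.47, 8.02 and 8.19 at the lowest, median and highest in WT (-0.50, adjusted p = 0.0155), and its WT replicate 4 lay inside the KO range. Against WT replicates 1 to 3 Vcan differed by -0.59, and against 4 to 6 by -0.41 (adjusted p = 0.518). Gramd1c, of a family that moves sterols between membranes, had differences of -0.79 against the first WT set and -0.13 (adjusted p = 1) against the second.

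Saa3, an acute phase protein made by activated MFs, rose the most. It read 8.74, 8.81, 8.05, 8.59 and 8.73 in the KO and had a lowest value of 6.93, a median of 7.35 and a highest of 7.45 in WT. All KO arrays were above all WT arrays, KO replicate 3 being the lowest of them. The level was 2.54-fold higher, a log2 difference of 1.34 ± 0.17 (SE; limma adjusted p = 6.21e-06), at 1.48 against WT replicates 1 to 3 and 1.21 (adjusted p = 0.000476) against 4 to 6. Saal1, named for its likeness to serum amyloid A, was higher by a log2 difference of 0.45 (adjusted p = 0.00629), with 1 WT array inside the KO range, and did not pass against WT replicates 4 to 6 (0.34, adjusted p = 0.51).

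Apold1, an apolipoprotein L domain protein known from activated endothelium, rose by 1.30 ± 0.14 on the log2 scale (SE; limma adjusted p = 3.71e-08). Its KO values were 8.58, 8.15, 8.54, 8.30 and 8.56, and its WT values had a lowest of 6.82, a median of 7.07 and a highest of 7.50. The groups were far apart, and both WT sets gave a call (1.16 and 1.44). The 8 endothelial markers measured had 0 calls by limma (0.201% of all genes passed) and 0 with an unadjusted p below 0.05 (9.92% of all genes). Their summed linear level ran from 741 to 797 in the KO and from 734 to 841 in WT. In the Ly6C+ MFs of day 2, 5 of the 8 were called lower, where 0.787% of all genes were. The part of endothelial cells in the Apold1 difference was not tested.

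Slc40a1, ferroportin, the exporter of iron from MFs, read 7.35, 6.70, 7.26, 6.98 and 6.77 in the KO, with 5.64, 6.07 and 6.24 as the lowest, median and highest WT values. Every KO array exceeded every WT array. The difference was 1.00 ± 0.13 (SE; limma adjusted p = 1.06e-05), and it passed against WT replicates 1 to 3 (1.12, adjusted p = 6.09e-06) and 4 to 6 (0.89, adjusted p = 0.00366). It was the only call among the 14 measured genes of iron and heme handling, where 0.201% of all genes passed. Acp5, the tartrate-resistant acid phosphatase, and Pla2g7, which inactivates platelet-activating factor, were bright genes with small differences of 0.33 (adjusted p = 0.0393) and 0.30 (adjusted p = 0.00656). Neither passed against WT replicates 4 to 6.

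**Figure D3:**
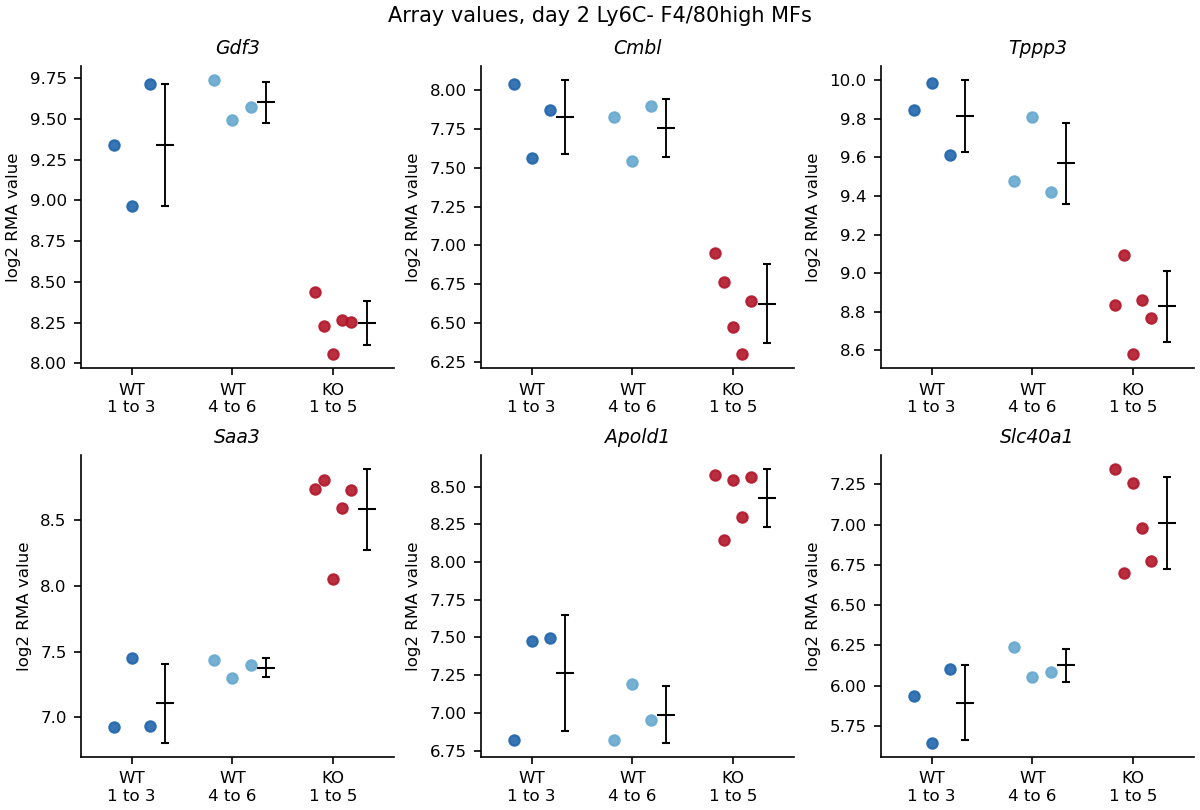
Log2 RMA values (y axis) of 3 genes that fell and 3 that rose in day 2 Ly6C- MFs, for WT replicates 1 to 3, WT replicates 4 to 6 and KO replicates 1 to 5 (x axis). Points are arrays and black bars the mean ± SD, each axis has its own range, and in all 6 genes no KO array overlapped a WT array.

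Of the surface receptors, Clec7a, dectin-1, which recognises fungal glucans, read 10.15, 9.79, 10.05, 9.77 and 10.04 in the KO and 8.93, 9.42 and 9.58 at the lowest, median and highest in WT. The groups did not overlap, and the difference of 0.60 ± 0.10 (SE; limma adjusted p = 0.000289) passed against both WT sets. Clec4a3, another C-type lectin, and Pilrb1, an activating paired receptor, had differences of 0.35 (adjusted p = 0.0335) and 0.53 (adjusted p = 0.0182) with no overlap, but did not pass against WT replicates 4 to 6 (0.35, adjusted p = 0.161, and 0.41, adjusted p = 0.57). Ms4a4c, a four-pass membrane protein of monocytes, was the single gene of the 40 called against the second set (0.74, adjusted p = 0.00595) and not against the first. H2-Q4, a class I MHC gene of the Qa region, was 0.62 higher (adjusted p = 0.00994), and as a member of a family of near-identical genes its signal may include that of relatives. It had 0.63 against the first WT set and 0.62 (adjusted p = 0.137) against the second. Plxnd1, a semaphorin receptor, read 11.24, 11.18, 11.40, 11.13 and 11.10 in the KO and between 10.71 and 10.93 in WT, a difference of 0.42 ± 0.07 (SE; adjusted p = 0.000732). Tmem176b, a four-pass protein of myeloid cells, differed by 0.43 (adjusted p = 0.0327), KO replicate 5 lay just below the highest WT array, and the difference against WT replicates 4 to 6 was 0.40 (adjusted p = 0.381). In WT Ly6C+ MFs of day 2, Ms4a4c averaged 11.97, Pilrb1 10.27, Tmem176b 10.11, Clec7a 10.83, Clec4a3 11.30 and H2-Q4 8.77. Their WT Ly6C- means were lower, at 9.57, 7.94, 8.35, 9.36, 10.35 and 8.22. Plxnd1 went the other way, at 10.41 in WT Ly6C+ and 10.79 in WT Ly6C- MFs. The part of Ly6C+ cells in these differences was not tested.

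Among regulators, Id3, which binds and blocks helix-loop-helix factors, read 8.15, 7.69, 8.28, 8.26 and 8.27 in the KO and 6.40, 6.92 and 7.99 at the lowest, median and highest in WT. WT replicate 6 lay above KO replicate 2, and the difference of 1.03 ± 0.24 (SE; limma adjusted p = 0.0449) was 1.25 against WT replicates 1 to 3 and 0.81 (adjusted p = 0.918) against 4 to 6. Gadd45g, a stress response gene, was 0.64 higher (adjusted p = 0.04) with WT replicate 6 inside the KO range, at 0.79 against the first WT set and 0.50 (adjusted p = 0.923) against the second. Zfp36, tristetraprolin, which speeds the decay of cytokine mRNAs, read between 12.02 and 12.07 in the KO and between 11.27 and 11.99 in WT, at 0.66 against the first set and 0.22 (adjusted p = 1) against the second. Rassf4, of a Ras-binding family, read between 10.44 and 10.79 in the KO and between 9.89 and 10.22 in WT, and its difference of 0.52 ± 0.09 (SE; adjusted p = 0.00056) passed against both WT sets.

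Not all of the 40 rested on all arrays. With 1 of the 11 arrays left out at a time, 16 genes passed in every such fit and 24 lost the call at least once. The fewest genes were left without KO replicate 1 (16 of the 40) and the most without WT replicate 4 (39 of the 40). In all 21 alternative fits, which included both WT sets on their own, 12 genes passed, the 8 lower ones Gdf3, Cmbl, Adam19, Tppp3, Megf9, Nav2, Eya4 and Alox5 and the 4 higher ones Saa3, Apold1, Slc40a1 and Rassf4. At the other end Plod2 passed in 2 of the 11 fits that left out an array, and Id3, Gramd1c, Il19, Pm20d1, Zfp36 and Cspg4 in 3 of 11.

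The same KO minus WT comparison in the Ly6C+ MFs of day 2, on other arrays, had 374 calls (1.88%). There 35 of the 40 genes had the same sign as in Ly6C- MFs, 14 passed with the same sign and 0 with the opposite one. Of all genes, 1.09% were called higher and 0.787% lower there, and 42.1% had a difference above 0. These arrays may not be wholly independent of the Ly6C- ones, since the deviations of same-numbered arrays of the subsets correlated between 0.0108 and 0.6 in WT and between 0.0429 and 0.285 in KO. The 14 were Gdf3 (-0.92), Adam19 (-0.73), Nav2 (-0.54) and Septin11 (-0.34) on the lower side and 10 higher genes with Apold1 (1.16), Saa3 (1.05), Id3 (0.95) and Plxnd1 (0.79) in front. The median difference of the 17 higher genes was 0.531 in Ly6C- and 0.395 in Ly6C+ MFs, and that of the 23 lower genes was -0.533 and -0.193, values that the choice of the genes in Ly6C- MFs bears on.

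A direct test of the difference between the subsets, the genotype by subset interaction, called 2 of 19938 genes (0.01%), Cmbl and Tppp3. In Ly6C+ MFs the Cmbl difference was 0.05 ± 0.12 (SE; limma adjusted p = 0.88). The mean there was 5.29 ± 0.12 in WT (SD, n = 6) and 5.35 ± 0.19 in KO (SD, n = 5). These levels lay below the medians of all arrays, 6.64 to 6.77, and whether a fall could be seen at such levels was not tested. The interaction by itself cannot tell an effect limited to Ly6C- MFs from low expression in Ly6C+ MFs. In Ly6C- MFs Cmbl averaged 7.79 ± 0.20 in WT and 6.63 ± 0.25 in KO. The interaction was -1.21 ± 0.17 (SE; limma adjusted p = 0.000148) and passed in all 33 alternative fits, including WT replicates 1 to 3 (-1.15, adjusted p = 0.00812) and 4 to 6 (-1.28, adjusted p = 0.00344). Tppp3 was high in Ly6C+ MFs of both genotypes, at 9.97 ± 0.35 in WT (SD, n = 6) and 10.11 ± 0.12 in KO (SD, n = 5). Its interaction of -1.01 ± 0.19 (SE; limma adjusted p = 0.0326) passed in 15 of the 33 fits. It was -0.89 (adjusted p = 0.598) with WT replicates 4 to 6 alone. With same-numbered arrays of both subsets as a block within each genotype, a fit chosen after seeing the data, Tppp3 had an adjusted p of 0.175 and Cmbl one of 0.00834. Slc40a1, at 1.00 in Ly6C- and 0.28 in Ly6C+ MFs, had an interaction of 0.73 (adjusted p = 0.656), and a difference between subsets was not shown for it or for the other 37 genes.

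**Figure D4:**
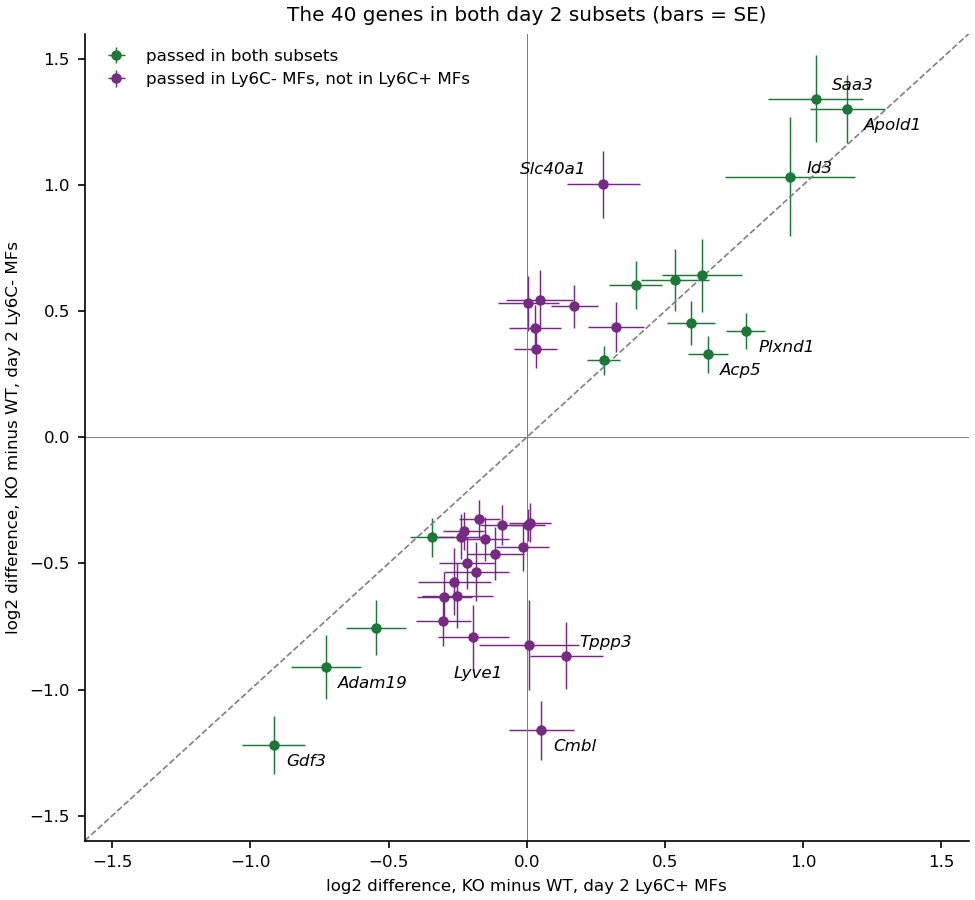
Log2 difference KO minus WT in day 2 Ly6C- MFs (y axis) against that in day 2 Ly6C+ MFs (x axis) for the 40 genes, with bars for the SE of each and a dashed line of equal values. Green genes passed in both subsets and purple genes in Ly6C- MFs but not in Ly6C+ MFs, and Cmbl, at -1.16 and 0.05, lay farthest from the line.

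The arrays of day 1 and day 4 are all labelled Ly6C+ F4/80low, and at day 4 the markers went against that label. The Ly6c probe sets averaged 9.88 and 10.24 in the WT arrays of day 4, between the levels of the day 2 subsets. Vcan, a monocyte gene, averaged 6.56 there, against 12.15 in WT Ly6C+ and 7.97 in WT Ly6C- MFs of day 2, and Igf1 averaged 11.09, against 7.93 and 10.90. Adgre1 stood at 12.27, against 11.53 and 12.08. At day 1, with 7 calls over all genes (0.0351%), 4 of the 40 genes passed, Gdf3 (-1.17, adjusted p = 3.68e-07), Plxnd1 (0.95, adjusted p = 4.87e-10), Apold1 (0.77, adjusted p = 0.0462) and Saa3 (1.22, adjusted p = 0.00103). In the arrays labelled Ly6C+ of day 4, with 13 calls (0.0652%), 4 passed, Gdf3 (-1.59, adjusted p = 1.37e-10), Plxnd1 (0.69, adjusted p = 1.97e-06), Apold1 (0.78, adjusted p = 0.0247) and Lrrc39 (-0.49, adjusted p = 0.000179). Gdf3, Plxnd1 and Apold1 were thus called in all 4 KO comparisons. Cmbl at day 4 averaged 7.10 ± 0.30 in WT (SD, n = 4) and 6.47 ± 0.19 in KO (SD, n = 4), a difference of -0.63 (adjusted p = 0.0595).

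Rosiglitazone activates PPARγ, and 3 arrays of WT Ly6C- MFs of day 2 are labelled as treated with it. With 7 calls over all genes (0.0351%), 3 of the 40 genes passed between these and the untreated WT arrays, which also serve in the KO comparison. Fhdc1 was 0.98 higher with the drug (adjusted p = 8.15e-05) and -0.53 in the KO, Lrrc39 0.52 higher (adjusted p = 8.15e-05) and -0.35 in the KO, and Clec7a -0.58 with the drug (adjusted p = 0.0232) and 0.60 in the KO. Gdf3 averaged 10.02 ± 0.09 with rosiglitazone (SD, n = 3), 9.47 ± 0.29 without (SD, n = 6) and 8.25 ± 0.14 in the KO (SD, n = 5), and the drug difference of 0.55 did not pass (adjusted p = 0.12).

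By position, some of the 40 genes lay near Pparg itself. Pparg lies on mouse chromosome 6, and 8 of the 40 genes lie there too. By the RefSeq positions of GRCm38.p6, 7 of the 342 genes with a start within 20 Mb of the start of Pparg passed (2.05%, against 0.201% of all genes), and on the rest of the chromosome 1 of 480 did beyond 40 Mb (0.208%). All 7 lay on the side of higher coordinates, where 266 of the 342 genes are: Plxnd1 at 0.594 Mb, Alox5 at 1.05 Mb, Rassf4 at 1.27 Mb, Gdf3 at 7.24 Mb, Clec4a3 at 7.59 Mb, Clec7a at 14.1 Mb and Apold1 at 19.6 Mb. Alox5 and Gdf3 fell and the other 5 rose, and the median difference of the 342 genes was -0.0342, near that of all genes (-0.0294). Against WT replicates 4 to 6 the share was 7 of 342 (2.05%, with 0.115% over all genes). Against WT replicates 1 to 3 it was 44 of 342 (12.9%, with 10.5% over all genes), and in Ly6C+ MFs of day 2 it was 8 of 342 (2.34%, with 1.88%), both near the share over all genes. Around Lyz2, on chromosome 10, 0 of 264 genes within 20 Mb passed against all 6 WT arrays. Whether DNA that travels with the floxed allele has a part in these values was not tested.

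**Figure D5:**
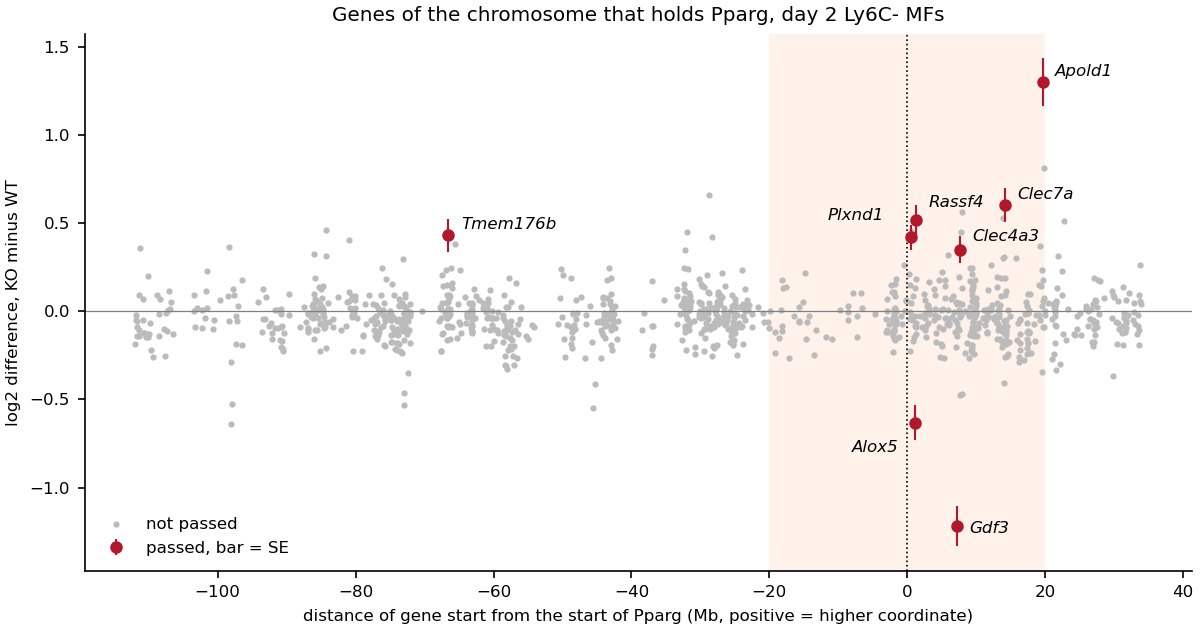
Log2 difference KO minus WT in day 2 Ly6C- MFs (y axis) against the distance of the gene start from the start of Pparg in Mb (x axis), for the genes of that chromosome. Red points passed, with bars for the SE, grey points did not, and the shaded band marks 20 Mb to either side, which holds 7 of the 8 genes that passed.

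PPARγ binds with RXR to paired copies of the half-site AGGTCA with 1 base between them, so the promoters of the 40 genes were read for these letters on both strands. Promoters are the 300 bases from 250 before to 50 after a RefSeq start (GRCm38.p6), and 32 of the 40 genes have 47 of them in the table used. The half-site stood in 3 of the 47 (6.38%), against 16.3% of all 32851 promoters, and the pair AGGTCANAGGTCA in 0 of 47, against 0.0396% of all. These windows leave out more distant regions, and a match is a description of letters, not of binding. Shown are 1 of the 2 half-site promoters of Adam19, a gene that fell, and that of Plxnd1, one that rose, beside that of Cmbl, which holds none. Capitals mark the half-site as it reads on the printed strand, AGGTCA or its reverse complement TGACCT.
Adam19 chr11:46054252-46054551, plus strand: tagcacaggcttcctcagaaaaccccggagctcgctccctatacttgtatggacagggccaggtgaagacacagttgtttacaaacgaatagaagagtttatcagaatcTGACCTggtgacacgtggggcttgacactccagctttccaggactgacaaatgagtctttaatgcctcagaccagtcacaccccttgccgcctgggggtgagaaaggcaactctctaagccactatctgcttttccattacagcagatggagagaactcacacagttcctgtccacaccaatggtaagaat
Plxnd1 chr6:115994956-115995255, minus strand: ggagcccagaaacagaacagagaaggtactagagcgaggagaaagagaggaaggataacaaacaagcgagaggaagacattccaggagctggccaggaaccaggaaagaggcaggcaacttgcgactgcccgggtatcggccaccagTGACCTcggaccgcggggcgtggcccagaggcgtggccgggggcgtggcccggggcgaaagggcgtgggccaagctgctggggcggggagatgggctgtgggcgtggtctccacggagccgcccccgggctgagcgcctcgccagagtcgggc
Cmbl chr15:31568583-31568882, plus strand: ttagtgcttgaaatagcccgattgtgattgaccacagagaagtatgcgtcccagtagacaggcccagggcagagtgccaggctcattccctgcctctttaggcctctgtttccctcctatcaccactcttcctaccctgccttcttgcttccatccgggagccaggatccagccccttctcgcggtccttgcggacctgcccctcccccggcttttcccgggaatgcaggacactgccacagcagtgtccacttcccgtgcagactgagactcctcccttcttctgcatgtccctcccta
The match starts at base 110 of the Adam19 window and at base 148 of the Plxnd1 window, and their genes differed by -0.91 and 0.42 in the KO.

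Of 23 lipid genes known as PPAR targets that were measured, 0 passed by limma, where 0.201% of all genes did. An unadjusted p below 0.05 was held by 3 of them, all 3 lower, and the median difference was -0.0642 against -0.0294 over all genes. At that unadjusted level 1329 of all 19938 genes were lower and 648 higher. Against WT replicates 1 to 3, 3 of the 23 were called lower, where 1172 of all 19938 genes were. Against replicates 4 to 6 none was called, where 0.115% of all genes were. In Ly6C+ MFs 2 were called higher, where 1.09% of all genes were. Fabp4, a fatty acid carrier, read between 10.11 and 10.62 in the KO and between 10.36 and 10.76 in WT (-0.16 ± 0.16, SE; limma adjusted p = 0.775). Cd36, a fatty acid and lipoprotein receptor, was among the brightest genes in both groups, with differences of -0.02 (adjusted p = 0.977) against all 6 WT arrays and 0.00 and -0.04 against the WT sets. Angptl4 and Plin2, an inhibitor of lipoprotein lipase and a lipid droplet coat protein, had differences of -0.33 (adjusted p = 0.531) and 0.05 (adjusted p = 0.886). Neither the partner receptor Rxra (-0.05, adjusted p = 0.899) nor any of the other 18 nuclear receptors and cofactors measured passed, where 0.201% of all genes did. Of these, Nr1h3, the oxysterol receptor LXRα, came nearest (-0.39, adjusted p = 0.0983).

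Over all 21 lists of MF functions, 5 of 372 distinct members passed, where 0.201% of all genes did: Gdf3 among growth and repair factors, Clec7a among alternative activation genes, Vcan among monocyte genes, Lyve1 among maturation genes and Slc40a1 among iron genes. With WT replicates 1 to 3 the count was 51 of 372 (10.5% of all genes), and against replicates 4 to 6 it was 3 (0.115% of all genes). Growth factor Igf1 was not called (0.16, adjusted p = 0.793), nor was the monocyte and MF receptor Cx3cr1 (0.23, adjusted p = 0.689). Some lists without a call had most members above 0, among them lysosome genes (16 of 21) and matrix remodelling genes (12 of 17). Of 19 interferon response genes 18 had a difference above 0, while over all genes 38.5% did. At an unadjusted p below 0.05, 5 of the 19 were higher and 0 lower, where 648 and 1329 of all 19938 genes were. The median of that list was 0.271 (0.170 and 0.366 against the WT sets). Immediate early and heat shock genes had a median of 0.251 (0.153 and 0.201 against the sets), with 16 of 18 above 0. The first WT set gave 7 of these 18 as called higher (927 of all 19938 genes), and the second none (9 of all genes). Nr4a1, an orphan nuclear receptor of that group, read 11.34 ± 0.10 in the KO (SD, n = 5) and 10.65 ± 0.45 in WT (SD, n = 6), a difference of 0.69 (adjusted p = 0.374). Inflammatory cytokines and chemokines had a median of 0.230 (0.259 and 0.191 against the sets) and 16 of 22 above 0. Against the first set 4 were called higher and 1 lower, where 927 and 1172 of all genes were, and none against the second. Il1b differed by 0.77 ± 0.43 (SE; limma adjusted p = 0.561), with WT values between 8.36 and 11.22. Members of a list share regulation and these lists were not tested as sets.

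Markers of other cells were read last. Of 95 members of the 10 marker lists 0 passed limma's test against all 6 WT arrays (0.201% of all genes did). An unadjusted p below 0.05 was held by 8 (9.92% of all genes). Against WT replicates 1 to 3, 5 passed (10.5% of all genes did), and against replicates 4 to 6 none did (0.115% of all genes did). Of the 14 neutrophil markers measured, 2 were higher and 2 lower at an unadjusted p below 0.05, and the list had a summed linear level of 2315 to 2629 in the KO and 1929 to 2158 in WT. The 14 differences ran from -0.185 to 0.93, with 8 above 0 and 6 below. Mmp9, a protease that MFs also make, had the largest (0.93, adjusted p = 0.0828), and Csf3r, the G-CSF receptor, differed by 0.20 ± 0.08 (SE; adjusted p = 0.415). Csf3r and Mmp9 were the brightest of the list, at means of 9.98 and 9.14 in KO and 9.78 and 8.21 in WT. No other member averaged above 7.12, so Csf3r and Mmp9 weigh most in the summed level. Mpo, myeloperoxidase, differed by -0.18 ± 0.09 (SE; adjusted p = 0.473), and Mmp9 and Mpo passed against WT replicates 1 to 3 (adjusted p = 0.0033 and 0.0043). S100a8, S100a9 and Ly6g, all named after their values were seen, differed by 0.00, 0.11 and -0.02 (limma adjusted p = 0.995, 0.749 and 0.97). S100a9 averaged 5.93 in KO and 5.82 in WT, and Ly6g 4.98 and 5.01, near the lower end of the signal range. The part of other cells in the 40 differences was not tested.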

How the data were processed

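RNA of sorted MFs was measured on 44 one-colour Affymetrix mouse gene arrays in 10 groups. The deposited values are log2 values that the authors made with RMA, per the labels, which corrects background, normalizes between arrays and summarises probe sets. No source used here names the software, its version or a genome build, and the paper read for style treats these arrays only as earlier work. Values ran from 1.46 to 13.6 with no missing value, medians of the 11 arrays compared ran from 6.64 to 6.74, and their pairwise correlations from 0.977 to 0.9945. No 2 arrays were identical. Precision is limited by how many arrays each group has.

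Of 35556 probe sets, 21789 carried 1 gene symbol in the platform annotation, 1621 carried several and 12146 none. A gene with several probe sets was read from the one with the highest mean, which left 19938 genes without a filter on dim ones. A linear model with a mean for each group used all 44 arrays (limma 3.58.1 in R 4.3.3, functions lmFit and eBayes; 34 residual and 6.46 prior degrees of freedom), with p-values two-sided and Benjamini-Hochberg adjusted over all genes at 0.05. WT replicates 1 to 3 and 4 to 6 were also given their own means (12 means, 32 residual degrees of freedom). Differences are KO minus WT on the log2 scale, with a standard error (SE), or an SD over arrays for levels. "Rose" and "fell" are used of genes that passed.

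Replicate numbers were checked for pairing. Deviations of same-numbered KO and WT arrays correlated between -0.131 and 0.136 in Ly6C- and between -0.0756 and 0.157 in Ly6C+ MFs. Those of same-numbered Ly6C- and Ly6C+ arrays correlated between 0.0108 and 0.6 in WT and between 0.0429 and 0.285 in KO. The best match was the Ly6C+ array of the same number for KO Ly6C- replicates 1, 2, 3 and 5. It was so too for WT Ly6C- replicates 3, 4 and 6. The labels tie no number to an animal, so the arrays were treated as unpaired, though the subsets may share animals.

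Named genes were the 15 largest rises and falls, 12 genes read always (Pparg, Lyz2, Lyz1, Rxra, Gdf3, Fabp4, Cd36, Angptl4, Plin2, Igf1, Adgre1 and Cx3cr1), up to 4 members per list that passed or otherwise the 2 with the largest differences, genes of the interaction, called genes within 20 Mb of Pparg or Lyz2, and genes called against both WT sets. The 9 called genes outside that rule, and S100a8, S100a9, Ly6g, Mpo, Serping1, Hal, Sh2d1b1, Lipt1 and the genes at the threshold, were named after their values were seen. The comparison, the members and the 31 gene lists were chosen with earlier results of these data known. Gene positions and promoters are from RefSeq (GRCm38.p6), which gave a position for 19856 genes. The alternatives were centring, fits on the compared arrays only, each WT set alone, a filter on dim genes, all probe sets, array weights, quantile normalization, the replicate number as a block, the same within each genotype for the interaction (chosen after seeing the data), and leaving out each array in turn.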

Additional observations from a re-analysis of the deposited data

Results flagged for a closer look

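Array values were read for single arrays far from the rest of their group by Dixon's test, in 101 genes and both groups, where chance marks about 1 group in 20. Of 202 groups of values, 17 held such an array, 6 of them in the 40 genes that passed. These were Vcan at 7.47 in WT replicate 4 (7.95 to 8.19 in the others), Myo10 at 7.55 in KO replicate 2 (7.31 to 7.37 in the others), Cd2 at 6.29 in WT replicate 2 (5.95 to 6.04 in the others), Gadd45g at 9.25 in WT replicate 6 (8.56 to 8.70 in the others), Id3 at 7.69 in KO replicate 2 (8.15 to 8.28 in the others) and Saa3 at 8.05 in KO replicate 3 (8.59 to 8.81 in the others). Among genes that did not pass, they were Abcg1 at 9.42 in KO replicate 5, Hadhb at 8.15 in WT replicate 5, Slc2a1 at 11.56 in KO replicate 5, Sqle at 8.41 in WT replicate 6, Xcr1 at 5.43 in WT replicate 6, Pros1 at 8.58 in KO replicate 3, Cdh15 at 6.34 in WT replicate 2, Igf1 at 11.31 in WT replicate 4, Cx3cr1 at 9.22 in WT replicate 1, Idh3a at 9.73 in KO replicate 5 and Il1b at 8.36 in WT replicate 4. WT replicates 4 and 6 and KO replicate 5 held 3 of the 17 each.

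By the interaction test of limma, the KO effect differed between day 2 subsets for Cmbl and Tppp3. The values, Ly6C- less Ly6C+, were -1.21 (adjusted p = 0.000148) and -1.01 (adjusted p = 0.0326). Cmbl lay below the array medians in Ly6C+ MFs of both genotypes, and whether a fall could be seen at such levels was not tested.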

How the results depend on the processing

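Of the 40 differences in day 2 Ly6C- MFs, 40 kept their sign in all alternatives in which they were tested (32 of them without dim genes), and 12 also stayed past the threshold in all 21. The count of 40 became 17 with only the arrays compared, 2099 with WT replicates 1 to 3 alone, 23 with WT replicates 4 to 6 alone, 224 with own means for both WT sets and 565 with array weights. It was 28 after centring, 45 without dim genes, 42 over all probe sets and 36 after quantile normalization. Not all of these were among the first 40. The passing genes held 14 of the 40 with only the arrays compared, 27 after quantile normalization, 28 after centring, 32 without dim genes and 39 over all probe sets. Leaving out 1 array gave 16 (without KO replicate 1) to 132 genes (without WT replicate 4). With the replicate block, under which 1 of 5 KO Ly6C- arrays correlated best with the WT Ly6C- array of its own number, 72 genes passed in Ly6C- MFs, 55 higher and 17 lower, 47 in Ly6C+ MFs and 1 in the interaction; among the 72 were 18 of the 40. Lyz2 reversed, at 0.46 with WT replicates 1 to 3 alone. The 374 calls in Ly6C+ MFs became 248 after centring, 13 with only the arrays compared, 2252 with WT replicates 1 to 3, 870 with own means for both WT sets, and 480 with WT replicates 4 to 6. Among the 2252 were 314 of the 374, and among the 480 were 136. For the interaction the 2 calls became 1 with only the arrays compared, 27 and 1 with WT replicates 1 to 3 and 4 to 6, 12 with array weights, 5 after quantile normalization, and 1 to 7 without 1 array. With the block within each genotype, added after seeing the data, 2 genes passed, 1 of them among the first 2 (Cmbl). The causes of these changes were not tested.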

Other observations

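Against WT replicates 4 to 6 alone, 7 genes passed that were not among the 40. Besides Lyz2 and Lyz1 these were the complement inhibitor Serping1 (-0.82, adjusted p = 0.0203), the histidine-degrading enzyme Hal (-0.73, adjusted p = 0.0161), Sh2d1b1, an adaptor of SLAM receptors (-0.97, adjusted p = 0.0257), Lipt1, which attaches lipoyl groups (-0.52, adjusted p = 0.0242), and the heme-binding Hebp1 (0.97, adjusted p = 0.0387). Against all 6 WT arrays Hebp1 had a difference of 0.81 (adjusted p = 0.0843), and in the Ly6C+ MFs of day 2 it rose by 1.88 (adjusted p = 2.85e-07).

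No measured gene of the lists of class II MHC and costimulation or of LXR targets and cholesterol export was called against WT replicates 4 to 6. Over all genes, 0.115% were called against that set. Against replicates 1 to 3 alone, 4 of 10 in the first list and 2 of 12 in the second were called lower. Over all 19938 genes, 1172 were called lower against replicates 1 to 3. H2-Ab1, a class II MHC chain, differed by -0.88 there (adjusted p = 5.2e-08) and by -0.20 (adjusted p = 1) against replicates 4 to 6, and Cd74, the invariant chain, by -0.51 (adjusted p = 0.000103) and -0.15 (adjusted p = 1). Abcg1, a cholesterol exporter, differed by -0.75 (adjusted p = 0.000176) and -0.17 (adjusted p = 1). The metalloprotease Mmp19 differed by -1.34 (adjusted p = 5.76e-08) against the first set and by 0.01 (adjusted p = 1) against the second. All 4 also passed between the WT sets themselves.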
